A study of Mus musculus with 12 samples.

Results

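A set of 10 genes that mark blood vessel endothelium or its growth were followed in the dermis of wounded mice. The genes were Pecam1, Cdh5, Clec14a, Kdr, Flt1, Tek, Tie1, Vwf, Emcn and Egfl7, taken by mouse symbol out of 55401 genes in the expression table. All 10 members passed the filter on low values that left 14313 genes for testing (a mean FPKM of at least 1 over all samples; FPKM is fragments scaled by transcript length and library size). The genes were selected on symbol, with the fold changes and FPKM of these 12 samples already in view, and Clec14a was singled out for its FPKM to ask whether it moves with the other 9, so its own levels are given as a description.

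The 12 samples were bulk RNA-seq libraries of dermis from C57BL/6 mice aged 6 weeks. Wild-type (WT) mice were compared with Cthrc1-/- mice, which lack a secreted protein, collagen triple helix repeat containing 1, made mainly by activated fibroblasts and vessel wall cells. Each genotype was sampled at day 0 and at day 7 of wounding, which gave 4 groups of 3 biological replicates, and the design speaks of paired wounds of equal size. The labels do not say how the Cthrc1 allele was made, how wounds were paired or which samples, if any, came from the same mouse. If replicates shared an animal, the p-values would measure only the spread between these samples.

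Blood vessels are lined by endothelial cells, which hold to each other through VE-cadherin (Cdh5) and PECAM-1 (Pecam1). New vessels sprout when vascular endothelial growth factor (VEGF) binds the receptor tyrosine kinases VEGFR2 (Kdr) and VEGFR1 (Flt1), the latter acting largely as a decoy, while the angiopoietin receptor TIE2 (Tek) and its partner TIE1 (Tie1) govern vessel maturation and quiescence. In skin wounds, capillaries invade the granulation tissue and are pruned later. Clec14a encodes an endothelial C-type lectin of the group that also holds CD93, thrombomodulin and endosialin; it binds the matrix protein multimerin 2 (Mmrn2) and takes part in sprouting.

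The promoters of 7 of the 10 members are in the RefSeq table used here (GRCm38.p6); Cdh5, Pecam1 and Vwf are named only. The 250 bases before each transcript start were searched on both strands for AGGAAG, a core of ETS factor sites, and TAAACA, a core of forkhead factor sites; the letters of these motifs do not overlap each other. AGGAAG was in 29.5% and TAAACA in 12.03% of 32851 mouse promoters of that length. Emcn and Flt1 each held AGGAAG 2 times, Tie1 held it 1 time, and it was in 2 of the 3 Egfl7 windows. The windows of Kdr, Tek and Clec14a did not contain it, and Clec14a was the member whose window held TAAACA, 27 bases before the start. Clec14a is shown with Emcn and Flt1, the members with AGGAAG 2 times, because it was the gene singled out for its FPKM. Each is given 5′ to 3′ on the strand of its gene, with the motif or its reverse complement in capitals; Emcn stops where the GENCODE gene begins, and Clec14a stops at its motif, 11 bases inside the GENCODE gene. A match of letters is a description and does not show binding.
Clec14a, chr12:58269280-58269508 (minus strand): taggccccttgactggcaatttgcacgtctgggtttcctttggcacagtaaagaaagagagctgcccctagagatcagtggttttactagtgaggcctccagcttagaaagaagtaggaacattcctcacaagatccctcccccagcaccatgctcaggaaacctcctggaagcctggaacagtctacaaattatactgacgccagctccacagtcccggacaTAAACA
Emcn, chr3:137340828-137341066 (plus strand): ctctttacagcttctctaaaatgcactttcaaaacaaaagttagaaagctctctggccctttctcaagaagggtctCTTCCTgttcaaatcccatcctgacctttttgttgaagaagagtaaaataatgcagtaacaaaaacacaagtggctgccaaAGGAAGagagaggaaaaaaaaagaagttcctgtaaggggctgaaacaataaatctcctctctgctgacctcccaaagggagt
Flt1, chr5:147726012-147726261 (minus strand): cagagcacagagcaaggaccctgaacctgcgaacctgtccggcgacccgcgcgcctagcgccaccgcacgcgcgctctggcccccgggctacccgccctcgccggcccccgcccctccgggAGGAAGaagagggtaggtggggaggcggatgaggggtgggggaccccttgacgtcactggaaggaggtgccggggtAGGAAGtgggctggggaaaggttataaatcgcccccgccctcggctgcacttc

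Total counts per library ran from 48329668 to 76938132, and the lowest count of any member in any library was 231. Cthrc1 itself had 0 to 15 counts in the Cthrc1-/- libraries against 1813 to 11678 in WT. A pair of libraries stood apart. WT day 7 replicate 1 had a summed FPKM of 8 leukocyte markers of 5787, where the other day 7 libraries of both genotypes lay between 306.9 and 1501. Cthrc1-/- day 0 replicate 3 had a summed FPKM of 6 inner root sheath genes of the hair follicle of 11423, against 2.77 to 5.39 in WT day 0, and it had the lowest level of each of the 10 endothelial genes of any library. The counts of members called or not overlapping below are therefore also given with both libraries left out. Other libraries also differed from their group and were kept in that setting. The inner root sheath sum was 504.2 in Cthrc1-/- day 7 replicate 2, against 3675 and 5223. It was 227.5 in Cthrc1-/- day 0 replicate 1, against 4703 and 11423. The muscle sum was 900.1 in WT day 7 replicate 2, against 114.5 and 196.7. All pericyte, fibroblast, leukocyte, red cell, keratinocyte, muscle and fat markers had counts in every library, as did at least 5 of 6 platelet and 4 of 6 hair follicle genes, so the dermis samples were mixed tissue. In such bulk samples fewer endothelial cells and less RNA per cell cannot be told apart.

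Pecam1 and Cdh5, the junction and adhesion molecules, were the most abundant members. Cdh5 was at 15.7, 16.3 and 15.7 FPKM in WT and at 9.50, 11.3 and 4.05 FPKM in Cthrc1-/- on day 0. On day 7 Cdh5 was at 46.8, 28.7 and 15.8 FPKM in WT and at 35.0, 46.2 and 25.9 FPKM in Cthrc1-/-. The 3 day 0 Cthrc1-/- samples thus lay below all WT samples, and the day 7 samples of the genotypes overlapped. Pecam1 lay between 18.6 and 19.6 FPKM in day 0 WT and between 6.30 and 16.8 in the day 0 Cthrc1-/- dermis, and at day 7 between 17.6 and 40.0 in WT and between 28.8 and 53.1 in Cthrc1-/-.

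Clec14a was the least abundant member in the dermis of WT mice on day 0, at 1.60, 1.54 and 1.77 FPKM, and was at 1.89, 2.32 and 1.34 FPKM in the day 0 Cthrc1-/- dermis. On day 7 it was at 4.41, 4.14 and 2.72 FPKM in WT and at 10.9, 12.6 and 8.95 FPKM in Cthrc1-/-. The day 0 groups overlapped, while on day 7 the lowest Cthrc1-/- sample was above the highest WT sample. By mean FPKM, which is per length, Clec14a was the tenth of the 10 genes in both day 0 groups, the ninth in WT day 7 and the fifth in Cthrc1-/- day 7. There it stood at 10.8 ± 1.85 FPKM (SD, n = 3), next to Tek at 9.57 ± 3.56 and Emcn at 9.32 ± 1.25, which do not differ from it beyond their spread. Clec14a is a gene of 1 exon on the minus strand (ENSMUSG00000045930, chr12:58264720-58269290, GRCm38), and its counts ran from 328 to 4472.

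The VEGF receptors were among the low members. Kdr lay between 3.81 and 4.07 FPKM in day 0 WT and between 0.990 and 3.24 in the day 0 Cthrc1-/- dermis, and at day 7 between 3.71 and 6.37 in WT and between 5.01 and 7.92 in Cthrc1-/-. Flt1 lay between 2.28 and 2.79, between 0.565 and 2.79, between 1.84 and 5.42 and between 2.61 and 6.56 FPKM in the same order. Flt1 was the member whose groups overlapped in each of the 4 comparisons.

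The TIE receptors were higher than the VEGF receptors in WT day 0. Tie1 was at 8.60, 8.46 and 8.49 FPKM in WT day 0 and at 5.91, 6.40 and 2.79 in Cthrc1-/- day 0, and at 16.5, 15.0 and 8.89 in WT day 7 and 18.6, 23.7 and 17.6 in Cthrc1-/- day 7. All 3 day 0 Cthrc1-/- samples were below WT, and all 3 day 7 Cthrc1-/- samples were above WT. Tek was at 5.15, 5.48 and 5.24 FPKM in WT day 0 and at 3.14, 3.65 and 0.918 in Cthrc1-/- day 0, and at 6.31, 7.35 and 4.10 in WT day 7 and 10.4, 12.6 and 5.65 in Cthrc1-/- day 7, where 1 Cthrc1-/- sample lay within the WT range.

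Of the remaining members, Vwf encodes the von Willebrand factor that tethers platelets. It was at 3.46, 4.53 and 4.10 FPKM in WT day 0 and 3.27, 3.30 and 1.21 in Cthrc1-/- day 0, and at 5.21, 4.80 and 3.50 in WT day 7 and 8.64, 11.6 and 5.89 in Cthrc1-/- day 7. Its genotype groups did not overlap on either day, with Cthrc1-/- below WT on day 0 and above it at day 7. Emcn, the sialomucin of capillaries and veins, lay between 3.55 and 4.08 FPKM (WT) and between 0.995 and 3.11 (Cthrc1-/-) on day 0, and between 3.97 and 8.06 (WT) and between 8.57 and 10.8 (Cthrc1-/-) at day 7. Egfl7, a secreted factor of sprouting endothelium and the host gene of miR-126, was at 9.22, 9.20 and 12.1 FPKM in WT day 0 and 7.14, 8.73 and 4.82 in Cthrc1-/- day 0. On day 7 Egfl7 was at 21.4, 17.5 and 12.6 FPKM in WT and 21.3, 29.5 and 19.1 in Cthrc1-/-. Egfl7 overlaps the end of Agpat2 on the opposite strand, which reached 16.3 FPKM, and no source used here says whether reads were counted by strand, so the level of Egfl7 is uncertain.

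**Figure D1:**
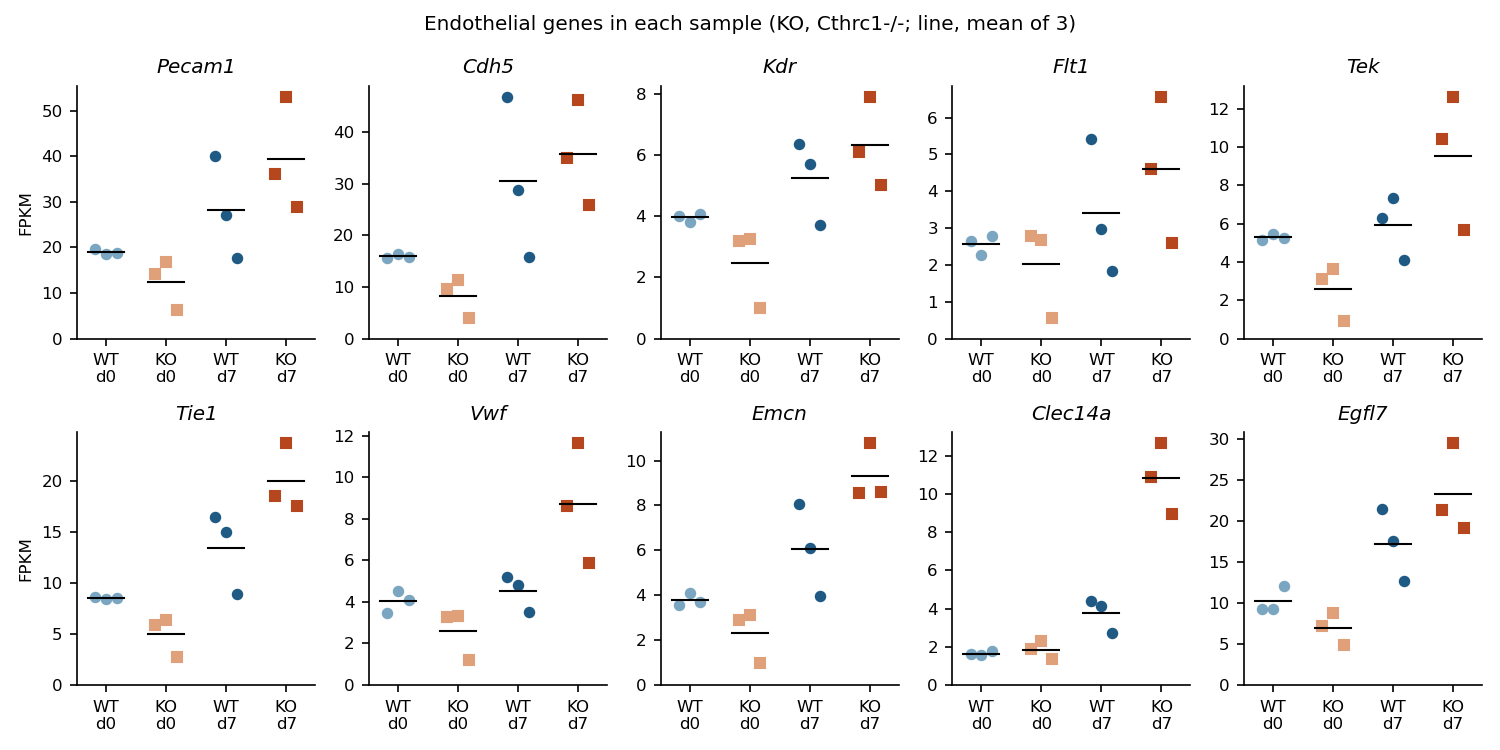
FPKM (vertical axis, from 0) of each of the 10 endothelial genes in the 12 dermis samples, by group (WT or Cthrc1-/-, written KO, at day 0 or day 7); points are samples and lines are means of 3. Clec14a reached 8.95 to 12.6 FPKM in Cthrc1-/- day 7, above every other sample, and Cthrc1-/- day 0 replicate 3 is the lowest sample for every gene.

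On day 0, 9 of the 10 genes had lower fitted levels in Cthrc1-/- than in WT, against 53.6% of all tested genes, and 8 of the 10 were lower without overlap between the groups, against 19.8% of all tested genes. None of the 10 passed edgeR's quasi-likelihood test at an adjusted p of 0.05 (Benjamini-Hochberg over all tested genes), where 5.78% of all genes passed; 2 had an unadjusted p under 0.05, where 28.4% of all genes did, and DESeq2 also called 0 of the 10, against 19.6% of all genes. The members' median log2 difference was -0.73, against -0.05 over all tested genes. The 2 with an unadjusted p under 0.05 were Tek, at -1.12 (SE 0.49, edgeR adjusted p = 0.167), and Tie1, at -0.84 (SE 0.35, edgeR adjusted p = 0.150). Cdh5 differed by -1.02 (SE 0.48, edgeR adjusted p = 0.188). Clec14a differed by 0.08 (SE 0.28, edgeR adjusted p = 0.869), outside the range of the other 9, which ran from -1.12 to -0.42. With both libraries that stood apart left out, again 0 members were called with edgeR, against 6.82% of all genes, and 8 were again lower without overlap, against 24.6% of all genes. Flt1 then differed by 0.07. Clec14a was higher without overlap, 1 of 10 members against 26.6% of all genes, a share below the background.

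Markers of several other cell types, though not of all, were also lower in Cthrc1-/- on day 0. The summed FPKM of 6 fibroblast markers was 337.2 to 2386 in Cthrc1-/- against 4814 to 6441 in WT. All 6 were lower without overlap, against 19.8% of all tested genes. Pericyte markers summed to 38.3 to 89.1 FPKM against 103.9 to 116.5, with 4 of 8 lower without overlap and 1 of 8 with a higher fitted level. The 5 skeletal muscle and 3 of the 4 fat markers were also lower without overlap. Leukocyte sums overlapped, at 88.1 to 257.4 FPKM in Cthrc1-/- against 232.8 to 250.4 in WT. Of the 8 leukocyte genes 2 were higher and 3 lower without overlap. Keratinocyte sums overlapped as well, at 3777 to 8119 FPKM against 7420 to 8181. The 6 inner root sheath genes summed to 227.5 to 11423 FPKM in Cthrc1-/- and all 6 passed the test as higher, against 3.51% of all genes. The part of this shift in tissue makeup in the endothelial difference was not tested.

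**Figure D2:**
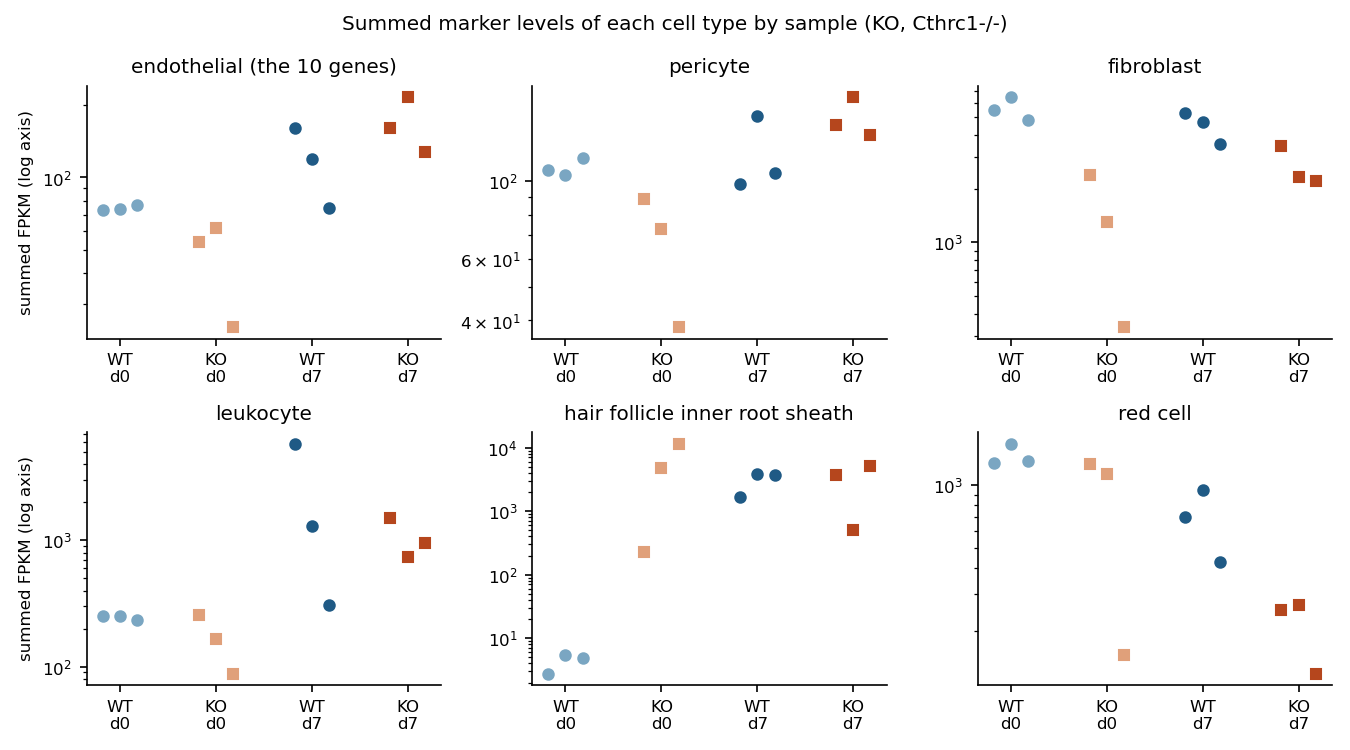
Summed FPKM (log axis) of the marker genes of 6 cell types in each sample, by group; each point is 1 sample. The endothelial, pericyte and fibroblast sums of Cthrc1-/- day 0 lie below WT day 0, the hair follicle sum lies above it, and the red cell sums of Cthrc1-/- day 7 (124.8 to 265.0) lie below WT day 7 (425.9 to 946.6).

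At day 7 all 10 genes had higher fitted levels in Cthrc1-/- than in WT wounds, against 49% of all tested genes, with a median log2 difference of 0.42 against -0.01 over all genes. Clec14a, Tie1, Vwf and Emcn were higher without overlap between the groups, 4 of 10 against 6.46% of all genes. None of the 10 passed edgeR's test, which called 3 genes in all, or 0.021%; 1 member had an unadjusted p under 0.05, against 5.46% of all genes. That member was Clec14a, 2.70-fold higher in Cthrc1-/-, with a log2 difference of 1.43 (SE 0.28), an unadjusted edgeR p of 0.000485, the seventeenth smallest among all genes (edgeR adjusted p = 0.408). The call depended on the test: DESeq2 gave Clec14a an adjusted p of 0.000592 and limma on log2(FPKM + 1) one of 0.0431. Neither called another member, and they called 0.436% and 0.0559% of all genes. A pseudocount of 0.1 in limma gave Clec14a 0.0839, and over single libraries left out the edgeR value ran from 0.217 to 1.0 with log2 differences of 1.21 to 1.63. Next came Vwf at 0.86 (SE 0.40, edgeR adjusted p = 0.914) and Tek at 0.61 (SE 0.48, edgeR adjusted p = 0.975), while Cdh5 differed by 0.11 (SE 0.47, edgeR adjusted p = 0.998). Leaving out both libraries that stood apart, the Clec14a difference was 1.64 (edgeR adjusted p = 0.125) and 0 members were called, against 0.0349% of all genes. Pecam1 and Egfl7 then joined the members higher without overlap, 6 of 10 against 9.97% of all genes.

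Red cell markers were lower in Cthrc1-/- than in WT wounds. The 5 red cell genes summed to 124.8 to 265.0 FPKM in Cthrc1-/- wounds against 425.9 to 946.6 in WT, all 5 lower without overlap, against 2.67% of all genes, and none passed edgeR's test (4 had an unadjusted p under 0.05). Platelet gene sums overlapped, at 40.3 to 50.2 FPKM in Cthrc1-/- and 34.2 to 360.4 in WT. Pericyte markers summed to 135.9 to 173.5 FPKM against 98.1 to 153.2, and fibroblast markers to 2193 to 3447 against 3521 to 5251. Their part in the Clec14a difference was not tested.

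Wounding in WT mice was followed by higher Clec14a and by smaller differences in the others. Clec14a rose 2.04-fold from day 0 to day 7, a log2 change of 1.03 (SE 0.28, edgeR adjusted p = 0.0402), and was the 1 member called, where 13.1% of all genes were called and 6.04% were called higher. The call was lost without the filter on low genes (adjusted p = 0.0596) and when only the 2 WT groups were fitted (0.0530). It was also lost without any 1 of the 3 WT day 0 replicates, WT day 7 replicate 1 or 2, or Cthrc1-/- day 7 replicate 1 or 2, and the adjusted p over single libraries left out ran from 0.0178 to 0.122. Clec14a, Tie1 and Egfl7 were higher without overlap, 3 of 10 against 29.8% of all genes, a share at the background, and 1 of 10 had an unadjusted p under 0.05, against 32.5%. With both libraries that stood apart left out, Clec14a was again the 1 member called by edgeR (log2 change 0.85, adjusted p = 0.0281), against 19.2% of all genes, and 3 of 10 were again higher without overlap, against 44.1%. Cdh5 had the next largest change at 0.80 (SE 0.47, edgeR adjusted p = 0.274), then Egfl7 at 0.59 (SE 0.31, edgeR adjusted p = 0.218); Tek and Vwf stood at -0.01 with standard errors of 0.48 and 0.40. Leukocyte markers in WT day 7 summed to 306.9 to 5787 FPKM against 232.8 to 250.4 in WT day 0. The 6 inner root sheath genes summed to 1663 to 3911 FPKM against 2.77 to 5.39, and all 6 were called higher. The 4 fat markers summed to 44.8 to 75.1 FPKM against 135.5 to 174.4, and all 4 were called lower, against 7.1% of all genes. The part of these shifts was not tested.

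In Cthrc1-/- mice all 10 genes had higher fitted levels at day 7 than at day 0, against 48.8% of all genes, with a median log2 change of 1.65 (0.46 in WT) against -0.01 over all genes, and 9 of 10, all but Flt1, were higher without overlap, against 21.5% of all genes. Clec14a, Tie1 and Egfl7 passed edgeR's test, 3 of 10 called higher against 0.859% of all genes (1.46% in either direction). Clec14a rose 5.21-fold (log2 change 2.38, SE 0.29, edgeR adjusted p = 0.0136), Tie1 rose 3.51-fold (1.81, SE 0.36, edgeR adjusted p = 0.0440) and Egfl7 rose 2.99-fold (1.58, SE 0.32, edgeR adjusted p = 0.0440). Emcn at 1.81 (SE 0.43, edgeR adjusted p = 0.0684), Cdh5 at 1.93 (SE 0.49, edgeR adjusted p = 0.0778) and Vwf at 1.57 (SE 0.41, edgeR adjusted p = 0.0847) did not pass. The 3 calls depended on single libraries: the count was 0 without Cthrc1-/- day 0 replicate 2 or without Cthrc1-/- day 7 replicate 1 or 2 (0.0349% of all genes called in each case). The adjusted p of Clec14a was then 0.0570, 0.0549 and 0.0523, with log2 changes of 2.59, 2.38 and 2.24. The count was 1 without any 1 of the WT day 0 replicates, Cthrc1-/- day 0 replicate 1, WT day 7 replicate 2 or Cthrc1-/- day 7 replicate 3. It was 7 without WT day 7 replicate 1 and 7 with both libraries that stood apart left out (11.5% of all genes); in the latter case 9 were again higher without overlap, against 36.5% of all genes. DESeq2 called 8 of the 10 members and 9.92% of all genes. The fibroblast sum was 337.2 to 2386 FPKM at day 0 and 2193 to 3447 FPKM at day 7 in these mice, and the inner root sheath sum 227.5 to 11423 and 504.2 to 5223 FPKM; their part was not tested.

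**Figure D3:**
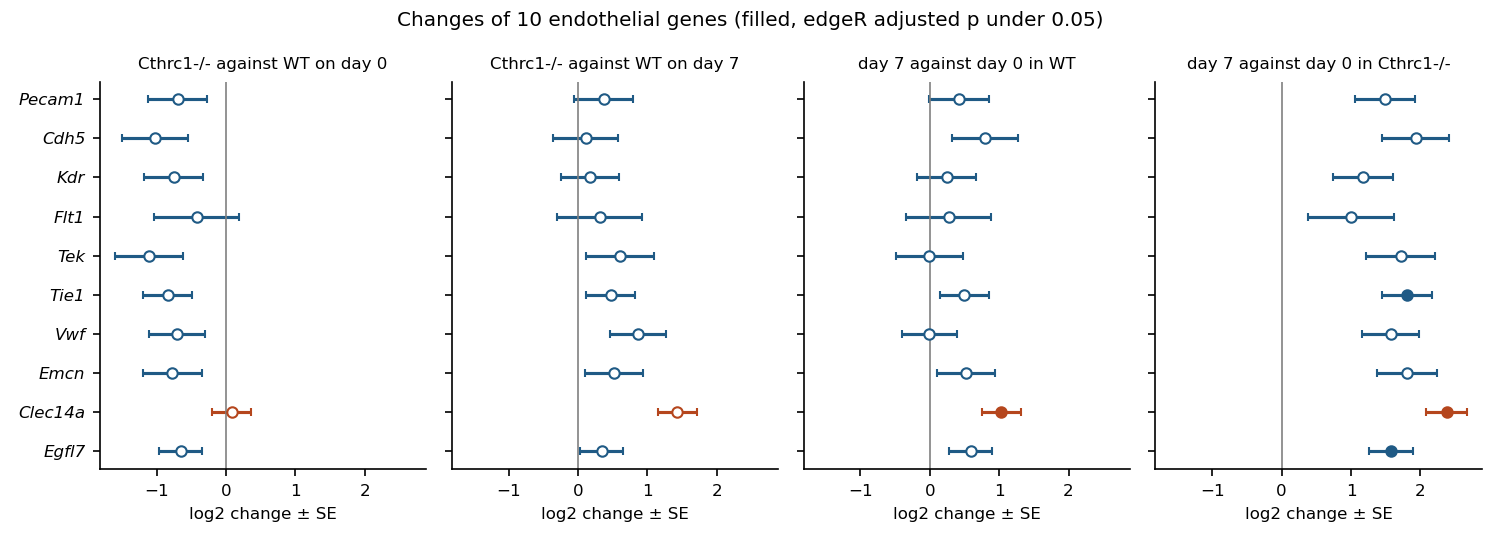
Log2 change (horizontal axis, ± SE of the edgeR fit) of each of the 10 endothelial genes in 4 comparisons; filled points passed an adjusted p of 0.05 and Clec14a is drawn in orange. Clec14a has the highest log2 change of the 10 genes in each panel (0.08, 1.43, 1.03 and 2.38).

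The test of whether the change from day 0 to day 7 differed between genotypes gave a positive estimate for all 10 members, against 51.5% of all genes, with a median of 1.21 on the log2 scale. No member passed edgeR's test, which called 0.014% of genes; 5 of 10 had an unadjusted p under 0.05, against 15.1% of all genes. The estimate of Clec14a, 1.35 (SE 0.40, edgeR adjusted p = 0.212), fell among those of the others, which ran from 0.73 for Flt1 to 1.72 for Tek. DESeq2 called 1 member, Clec14a, with an adjusted p of 0.0414, and 4.79% of all genes. With both libraries that stood apart left out, edgeR again called 0 members, against 0.0629% of all genes. These comparisons share samples, so their values stand side by side and are not independent of each other.

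Clec14a was next set against the other 9 members within each sample, as its FPKM over their geometric mean, a ratio that does not depend on how libraries are scaled. The ratio was 0.253, 0.238 and 0.264 in WT day 0 and 0.390, 0.435 and 0.741 in Cthrc1-/- day 0. On day 7 it was 0.361, 0.428 and 0.444 in WT and 0.836, 0.730 and 0.902 in Cthrc1-/-. The genotype groups did not overlap on either day. In geometric means, the ratio was 2.00 times higher in Cthrc1-/- than in WT on both days, and 1.63 times higher at day 7 than at day 0 in both genotypes. On day 0 the gap came with Clec14a near its WT level and the other 9 lower, and on day 7 with Clec14a itself higher. The other 9 genes, each set against the rest in the same way, had Cthrc1-/- over WT ratios between 0.671 and 1.13 on day 0 and between 0.756 and 1.24 on day 7.

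The day 0 separation was common among genes and the day 7 one was not. Against the same 9 genes, 55.2% of 14024 genes with a value in every sample were higher in Cthrc1-/- without overlap on day 0, 0.292% on day 7, and 0.164% on both days, Clec14a among these 23. Of 19 other pan-endothelial genes, 3 were so on day 0 (Plvap, Sox7 and Sox18), 2 on day 7 (Adgrl4 and Sox17) and 0 on both; these 5 are named after their values were seen. Over the 19 genes the ratio of Cthrc1-/- over WT had a median of 1.09 and a highest value of 2.58 (Sox7) on day 0, above the 2.00 of Clec14a, and a median of 0.948 and a highest value of 1.92 (Sox17) on day 7. Over all 14024 genes its median was 1.86 on day 0 and 0.724 on day 7. The 9 genes that form the denominator had lower fitted levels in Cthrc1-/- on day 0 and higher ones on day 7. The shares of separated genes on each day therefore depend in part on these 9 genes. Without Cthrc1-/- day 0 replicate 3 the day 0 ratio of Clec14a was 1.64 times WT, and without WT day 7 replicate 1 the day 7 ratio was 1.88 times WT. No test was made on these ratios, since Clec14a was chosen with its levels known.

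**Figure D4:**
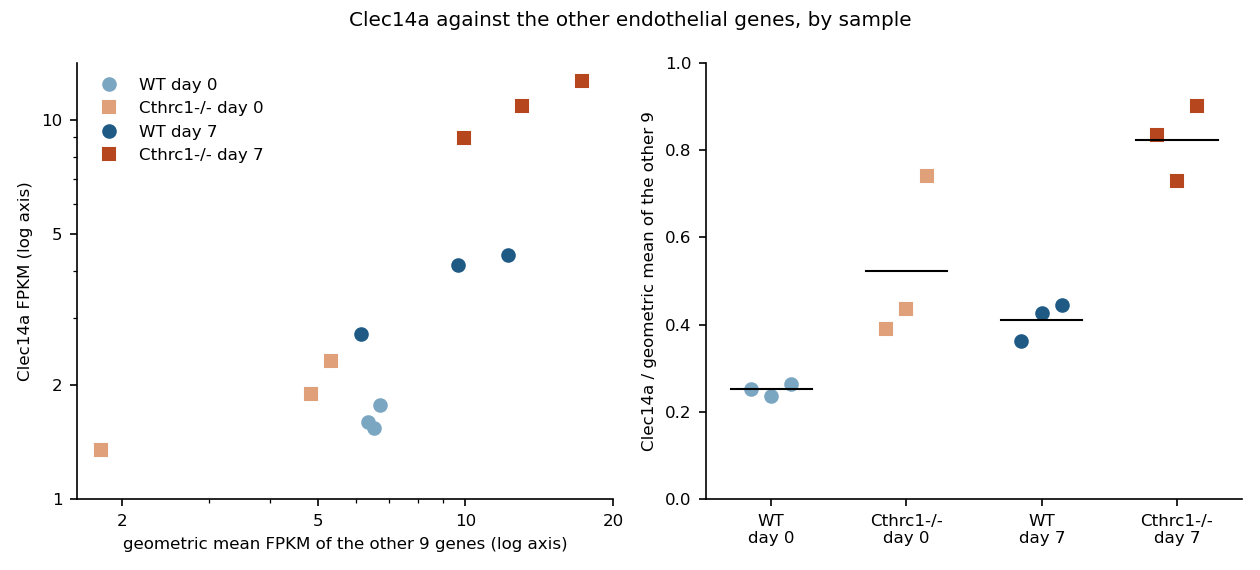
Left, Clec14a FPKM against the geometric mean FPKM of the other 9 endothelial genes in each of the 12 samples (both axes log); right, the ratio of these values by group, with a line at the mean of 3. In 3 of the 4 groups, all but WT day 0, the samples have the same order on both axes, and each Cthrc1-/- sample has a higher ratio than every WT sample of the same day (0.390 to 0.741 against 0.238 to 0.264, and 0.730 to 0.902 against 0.361 to 0.444).

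Sample by sample, Clec14a was correlated with the other genes, at the median less closely than they were with each other. The Pearson correlation of log2(FPKM + 1) over the 12 samples was between 0.690 (Flt1) and 0.883 (Egfl7), with a median of 0.818, while the 36 pairs among the other 9 genes had a median of 0.945 and a range of 0.833 to 0.993. When each group's mean was subtracted, the median correlation of Clec14a with the others was 0.908. These are descriptions, since all points share library and depth, and every member was low in Cthrc1-/- day 0 replicate 3. Without the 2 samples farthest from the median of Clec14a, the correlations ran from 0.441 with Flt1 to 0.826 with Emcn. Without the Cthrc1-/- day 7 group they ran from 0.583 with Tek to 0.870 with Egfl7 over 9 samples.

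By the same measure the genes most like Clec14a over the 12 samples were Chga (0.965), which encodes the granule protein chromogranin A, Oas1b (0.951) and Ifit3b (0.938), both interferon-induced, Clec2d (0.947), a lectin ligand of natural killer cell receptors, and Zc4h2 (0.944). The members themselves ranked from 58 (Egfl7) to 1066 (Flt1) among 14312 genes. For Cdh5 the 5 most like genes were Hip1 (0.991), Igfbp7 (0.987), the endothelial nitric oxide synthase Nos3 (0.986), the scavenger receptor Scarf1 (0.985) and Pecam1 (0.985). Chga was a low gene, with a mean FPKM on day 0 of 0.351 in WT and 0.544 in Cthrc1-/-. At day 7 its mean was 1.07 in WT and 4.14 in Cthrc1-/-. Its passing of the filter on low values thus rested on Cthrc1-/- day 7, the group where Clec14a was highest. The mean FPKM of Ifit3b on day 0 was 2.22 in WT and 1.01 in Cthrc1-/-, and at day 7 it was 4.10 in WT and 14.5 in Cthrc1-/-.

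The relatives and the ligand of Clec14a were measured as well. Among these 5 genes, Clec14a, Cd93, Thbd, Cd248 and Mmrn2, none was called by edgeR between genotypes on either day. DESeq2 called Clec14a on day 7, as did limma with a pseudocount of 1, and DESeq2 called Cd248 lower in Cthrc1-/- on day 0 (log2 difference -1.29, DESeq2 adjusted p = 0.0399). Cd93, which like Clec14a binds multimerin 2, rose in Cthrc1-/- wounds (log2 change 2.31, SE 0.48, edgeR adjusted p = 0.0495) and on day 7 differed between genotypes by -0.0038 (SE 0.46). Mmrn2, the shared ligand, differed on day 7 by 0.58 (SE 0.43, edgeR adjusted p = 0.968). Thrombomodulin (Thbd) differed by -0.97 (SE 0.57) and endosialin (Cd248), a gene of pericytes and fibroblasts, by -0.58 (SE 0.48), with Cthrc1-/- lower.

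The other genes of vessel growth, in lists drawn up for this purpose, held 65 tested genes besides the members, and edgeR called 0 of them between genotypes on either day and 0 for the genotype-by-day difference. Of these 65 genes 17 had an unadjusted edgeR p under 0.05 on day 0, against 28.4% of all genes. On day 7 there were 3, against 5.46%, and for the difference 13, against 15.1%. DESeq2 called 10 of the 65 on day 0, against 19.6% of all genes: Nrp2 and Unc5b higher in Cthrc1-/-, and Adgrl4, Cd248, Gpihbp1, Hey1, Pdgfb, Ptprb, Serpinf1 and Svep1 lower. It called 0 on day 7, against 0.436% of all genes. For the difference it called Adgrl4 (DESeq2 adjusted p = 0.0465) and Gpihbp1 (DESeq2 adjusted p = 0.00587), against 4.79% of all genes. With limma Serpinf1, an angiogenesis inhibitor, was called lower on day 0 (limma adjusted p = 0.0466 with a pseudocount of 1). With both libraries that stood apart left out, edgeR called Sox7 (0.88) and Efnb2 (0.45) higher and Serpinf1 lower (-1.13) on day 0, against 6.82% of all genes. It then called 0 of the 65 on day 7 or for the difference.

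Of 8 VEGF ligands and co-receptors, 1 was called in WT wounds, the neuropilin Nrp2, which rose by 1.03 (SE 0.21, edgeR adjusted p = 0.0136). That share of 1 in 8 was near the 13.1% of all genes called in either direction, where 6.04% were called higher. In Cthrc1-/- 0 of the 8 were called, against 1.46% of all genes. Vegfa, the main ligand of Kdr, was at 61.0, 10.4 and 6.99 FPKM in WT day 7 and at 15.4, 17.3 and 6.92 in Cthrc1-/- day 7, so that its WT mean rested on replicate 1. Of 4 tested genes of the angiopoietin axis 0 were called over time; Angpt2, the antagonist ligand of Tek made by sprouting endothelium, was at 15.8, 4.26 and 2.73 FPKM in WT day 7 and at 4.85, 6.36 and 4.32 in Cthrc1-/- day 7.

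Of 19 tested pan-endothelial genes, 19 had higher fitted levels at day 7 in Cthrc1-/-, against 48.8% of all genes, with a median log2 change of 1.42, and 2 passed, against 0.859% of all genes called higher: Sox18 (1.97, edgeR adjusted p = 0.0216) and Erg (1.55, edgeR adjusted p = 0.0443), both transcription factors. DESeq2 called 11 of the 19, against 9.92% of all genes in either direction. With both libraries that stood apart left out, edgeR called 12, against 11.5%, and 18 were above 0 with a median of 1.05. In WT 14 of the 19 had higher fitted levels, against 49.8% of all genes, with a median of 0.22, and 1 of 19, Sox18, passed (1.501, edgeR adjusted p = 0.0116), where 6.04% of all genes were called higher. With both libraries left out, 8 of the 19 were above 0 in WT, with a median of -0.02; Sox18 was again called higher (1.45) and the tight junction gene Cldn5 was called lower (-0.70, edgeR adjusted p = 0.0459). Of 6 tested tip cell genes, the apelin receptor Aplnr rose in both genotypes, by 2.61 (SE 0.53, edgeR adjusted p = 0.0147) in WT and 3.44 (SE 0.55, edgeR adjusted p = 0.0235) in Cthrc1-/-, and its ligand Apln passed in WT (3.04, edgeR adjusted p = 0.0231). Apln was at 18.05, 3.55 and 3.52 FPKM in WT day 7, so that the mean rested on replicate 1. Without that library the rise in WT was 3.36-fold in place of 8.23-fold for Apln (edgeR adjusted p = 0.0267) and 3.598-fold in place of 6.10-fold for Aplnr (edgeR adjusted p = 0.0159).

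Of 12 arterial, capillary and venous genes, the gap junction gene Gja4 rose by 1.08 in WT (edgeR adjusted p = 0.0333) and 1.58 in Cthrc1-/- (edgeR adjusted p = 0.0338). The arterial ligand Efnb2 fell by 1.06 in WT (edgeR adjusted p = 0.0138) and also fell by 1.06 in Cthrc1-/- (edgeR adjusted p = 0.0440). Its venous receptor Ephb4 rose in Cthrc1-/- (0.998, edgeR adjusted p = 0.0216), as did Gpihbp1, the capillary anchor of lipoprotein lipase (1.902, edgeR adjusted p = 0.0376), and the Notch target Hey1 passed in WT, where it fell by 1.14 (edgeR adjusted p = 0.0346). Without WT day 7 replicate 1 the WT calls of Gja4 (edgeR adjusted p = 0.0591) and Hey1 (edgeR adjusted p = 0.0937) were lost. None of the 4 tested lymphatic genes, 4 genes of activated endothelium or 6 angiogenesis inhibitors was called by edgeR in any comparison fitted on all 12 samples. With both libraries that stood apart left out, edgeR called the inhibitors Thbs1 and Adamts1 lower over time in both genotypes. Rgcc was then also called lower in both, and Ackr1 in WT, against 19.2% of all genes in WT and 11.5% in Cthrc1-/-. Thbs1 was at 369.2, 30.6 and 26.4 FPKM in WT day 7. DESeq2 called 1 lymphatic gene, 2 of activated endothelium and 1 inhibitor over time in WT, where it called 25% of all genes. In Cthrc1-/- it called 1 of activated endothelium and 2 inhibitors over time, where it called 9.92% of all genes. A call in 1 genotype and not in the other is not a difference between them: edgeR's test of that difference called none of these genes, and DESeq2's called Adgrl4 and Gpihbp1.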

How the data were processed

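The authors deposited 1 table of gene counts and FPKM for 12 poly(A)-selected, dUTP-marked, paired-end dermis libraries. Per the submitters' processing notes, cutadapt 1.9, HISAT2 2.0.4, UMI-tools, StringTie 1.3.4d, DESeq2 and edgeR were used with GRCm38; which step each served, and whether counting used strand, is not given in the sources used here. FPKM values are the authors' own and were used for levels, ratios and correlations. The deposited counts were fitted with edgeR 4.0.16 (TMM, 1 mean per group over all 12 samples, quasi-likelihood test, Benjamini-Hochberg over the 14313 genes whose mean FPKM reached 1). DESeq2 1.42.0 and limma 3.58.1 on log2(FPKM + 1) or log2(FPKM + 0.1) were alternatives. Scripts were tested on simulated data. Members and lists were chosen with earlier results of these data known. Named were all members, list genes that were called or among the 4 most abundant, and the 5 genes most like Clec14a and Cdh5. Symbols were matched for 55141 of 55401 identifiers; depth limits no member's count.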

Additional observations from a re-analysis of the deposited data

How the results depend on the processing

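Between genotypes on day 0, genes called numbered 827 with edgeR, 2787 with DESeq2, 275 with no filter on low genes and 19 when only the 2 groups were fitted. On day 7 they numbered 3, against 62 with DESeq2, 8 and 5 with limma at pseudocounts of 1 and 0.1, and 5 with the 2 libraries that stood apart left out; members called were 0, and 1 with DESeq2 or limma at a pseudocount of 1. Over time in WT, genes called were 1880, against 3551 with DESeq2, and members called were 1, against 0 with no filter or only 2 groups. Over time in Cthrc1-/-, genes called were 209, against 1409 with DESeq2, 775 and 773 with limma, 747 with total-count scaling, 89 with only 2 groups and 1651 without the 2 libraries; members called were 3, against 8, 9, 8, 8, 1 and 7. For the genotype-by-day difference, genes called were 2, against 681 with DESeq2, 4 and 1 with limma, 1 with total-count scaling, 1 with no filter and 9 without the 2 libraries; members called were 0, and 1 with DESeq2. Omitting both libraries was chosen after seeing the data. The median likeness to Clec14a was 0.818, and 0.908 from group means.

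Leaving out each sample in turn, genes called ranged from 18 to 2146 on day 0, 0 to 4 on day 7, 527 to 3005 over time in WT, 5 to 911 over time in Cthrc1-/- and 0 to 242 for the difference. Members called ranged from 0 to 1 in WT and 0 to 7 in Cthrc1-/-, and the likeness from 0.748 to 0.864.

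Correlations between the deviations of same-numbered samples ran from -0.23 to 0.43 and were not all above 0.1 in any comparison. With 3 replicates per group this cannot show whether same-numbered samples shared an animal or a batch. A replicate block gave 883, 2, 1467, 291 and 1 genes called in the 5 comparisons and 0, 0, 1, 7 and 0 members.

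Directions turned only for differences that passed no test. Over time in WT, Tek became 0.0308 with DESeq2, 0.11 and 0.12 with limma, 0.17 with total-count scaling and 0.0142 with no filter; Vwf became 0.0345, 0.12, 0.15, 0.17 and 0.0186. Total-count scaling moved the median of all genes there to 0.196. Flt1 became -0.0032 with the replicate block and -0.31 without the 2 libraries, and 0.0696 without them on day 0. Leaving out each sample in turn, the range crossed 0 for Flt1 (-0.75 to 0.0349) and Clec14a (-0.13 to 0.30) between genotypes on day 0, for Cdh5 (-0.23 to 0.65), Kdr (-0.0621 to 0.40) and Flt1 (-0.0474 to 0.91) on day 7, and for Flt1 (-0.24 to 0.60), Tek (-0.16 to 0.23) and Vwf (-0.11 to 0.19) over time in WT. The cause was not tested.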

Other observations

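Around Clec14a the nearest tested genes lay far off, Sec23a at a distance of 689.1 kb being the closest. On day 7 the difference between genotypes was -0.52 for Sec23a (SE 0.29, edgeR adjusted p = 0.956) and 0.00 for Gemin2 (SE 0.14), against 1.43 for Clec14a. The next genes, Trappc6b at -0.11, Prps1l3 at -0.08, Cox6c2 at 0.10 and Mbip at 0.02, did not pass the edgeR test on that day either. On day 0 Mbip was lower in Cthrc1-/-, by a log2 difference of -0.74 (SE 0.18, edgeR adjusted p = 0.0436). The pericyte markers had positive estimates for the genotype-by-day difference in 8 of 8 genes, against 51.5% of all genes. Their median was 0.97 on the log2 scale, beside 1.21 for the 10 endothelial genes, and none of them passed the test. This direction was not particular to vessel cells. Estimates were positive for 4 of 4 fat (median 2.12), 4 of 4 keratinocyte (1.06) and 5 of 6 fibroblast markers (1.15). They were positive for 3 of 5 muscle, 3 of 8 leukocyte, 1 of 4 platelet, 0 of 5 red cell and 0 of 6 inner root sheath markers.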
